A study of Homo sapiens with 18 samples.

Results

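The regions described here are stretches of chromatin in T47D cells, chosen by their group means with 10 nM R5020 and vehicle. After 6 h of 10 nM R5020 the mean was not much lower than that of vehicle, or was higher. After 18 h of the same dose it was lower than that of vehicle. The regions are called late-loss regions below, which names the choice only. There were 312 of them among 132604 listed regions, and 106059 regions had the mean level of at least 1 CPM (counts scaled to the size of the library) that the choice required. A region was chosen when its group mean of log2 CPM at 10 nM minus that of vehicle was above -0.3 at 6 h and -1.2 or less at 18 h. The regions were thus chosen by the 10 nM and vehicle values of both times, and these are given as a description, with no test of the pattern. The 0.1 nM libraries entered the choice only through the mean level over all libraries. In libraries left out of the choice, regions chosen in this way had medians below vehicle at 6 h as well.

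The question of the study was how a breast cancer line reacts to low and high progestin. T47D is an established human breast carcinoma line, and its open chromatin was profiled with Omni-ATAC-seq in cells held for 48 h in medium with 0.1% charcoal-stripped serum before treatment. The 6 groups were vehicle (DMSO), 0.1 nM R5020 and 10 nM R5020, each for 18 h and for 6 h, with 3 libraries per group and 18 in all. All groups share the line and the starvation, and no label says that replicates were separate cultures, so a p-value here reflects only how far these libraries spread, which may be technical. The line's identity was not checked against marker genes, because gene annotation of hg19, the build of these coordinates, was not used here.

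R5020 (promegestone) is a synthetic progestin. It binds the progesterone receptor, a nuclear receptor that acts as a transcription factor on DNA and can be followed by opening or closing of chromatin. In ATAC-seq the Tn5 transposase inserts adapters into open DNA, so reads in a region count how accessible it was. In such bulk samples, fewer cells with the region open and less opening per cell cannot be told apart. Region positions are hg19 starts and ends as the table gives them, without saying whether starts are 0-based or 1-based.

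Libraries held 8756311 to 39984217 counts in regions. The 10 nM group at 18 h was the most uneven, with 39984217, 10845301 and 8756311 counts, and the median late-loss region had 53, 11 and 10 counts in those libraries, against 76, 53.5 and 45 in the vehicle libraries at 18 h. On the principal components of log2 CPM, 10 nM replicate 1 at 18 h lay apart from its group (-181 on the second component, against 80.4 and 82.8). With 0.1 nM at 6 h, replicate 2 stood away from its group (83.1 on the second component, against -110 and -44.4), and the vehicle libraries at 6 h were spread along the first component at -240, -159 and -59.6. The 0.1 nM libraries at 18 h were spread along the second component at -37.5, 77.6 and 140, and held 30593974, 14072153 and 8865035 counts. The 5000 strongest regions took 38.0, 33.8 and 32.5% of counts with 10 nM and 40.3, 38.7 and 36.5% with vehicle at 18 h, and 35.1, 34.8 and 34.1% with 10 nM and 42.6, 39.0 and 37.4% with vehicle at 6 h. The part of this share and of depth in the choice of regions was not tested. Without 10 nM replicate 1 at 18 h the same limits chose 738 regions, of which 278 were among the 312. Without that library and vehicle replicate 1 at 6 h they chose 928, of which 238 were among the 312.

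Late-loss regions were narrower and weaker than the median region. Their median width was 347.5 bp (quartiles 245.5 and 572.5), against 471 bp for all regions of mean CPM at least 1 and 588.5 bp for the 2516 regions that were -1.2 or less at both times. Their median level was 2.20 CPM, against 3.15 CPM over all regions and 3.37 CPM over the regions lost at both times. The smaller sets of regions that changed at 1 time were weaker still, with medians of 1.51 CPM and 379 bp for the 98 regions lower with 10 nM at 6 h only, and 1.41 CPM and 292.5 bp for the 114 regions higher with 10 nM at 18 h only. Late-loss regions made up 0.414% of regions of 1 to 2 CPM, 0.3% of those of 2 to 5 CPM, 0.276% of those of 5 to 10 CPM and 0.112% of those of 10 CPM or more. The highest level among them was 51.7 CPM.

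By the values that chose them, 10 nM minus vehicle had a median of -1.37 at 18 h (lowest -3.20) and of -0.10 at 6 h (highest 0.96), on the log2 CPM scale. At 6 h the difference was above 0 at 108 of the 312 regions, above 0.3 at 38 and above 1 at 0. At 18 h it was -2 or less at 18 regions. The lowest value, -3.20, belonged to a region of 1.41 CPM on chromosome X from 73233903 to 73234188, named here after its value was seen. The regions just inside the limit at 6 h stood at -0.299, -0.298 and -0.298, and those just outside at -0.3003, -0.301 and -0.301. At the limit of 18 h, the values were -1.2027, -1.2029 and -1.2036 just inside and -1.1999, -1.1990 and -1.1984 just outside.

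**Figure D1:**
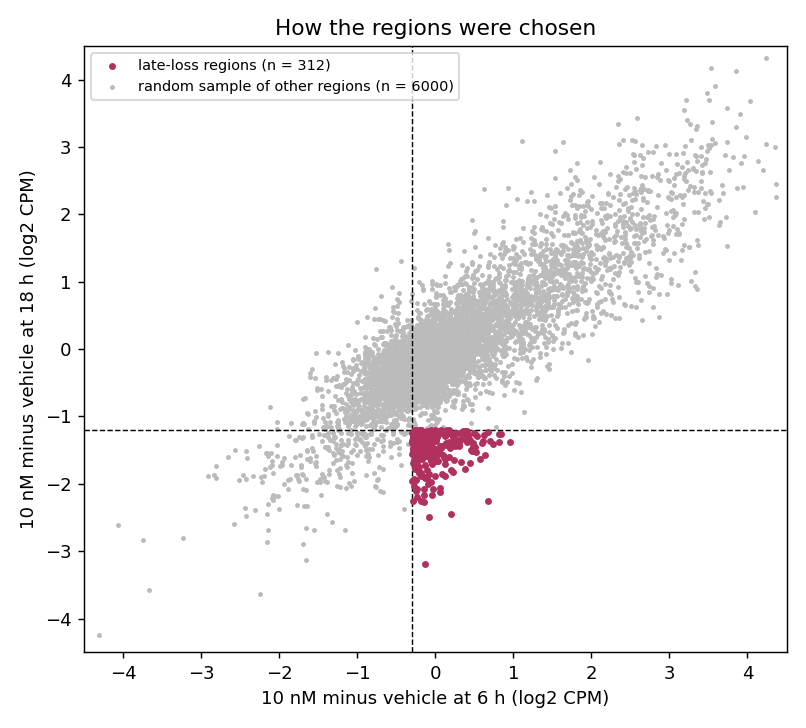
Each point is a region, placed by 10 nM minus vehicle in log2 CPM at 6 h (horizontal axis) and at 18 h (vertical axis), for the 312 late-loss regions and a random sample of other regions. The dashed lines are the limits of -0.3 and -1.2, and the late-loss regions lie at the edge of a continuous cloud, most of them close to the corner where the lines meet.

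The level of the set as a whole was followed as the median log2 CPM of the 312 regions in each library. At 18 h it was 1.73, 1.51 and 1.46 with vehicle, 1.17, 0.92 and 0.996 with 0.1 nM, and 0.60, -0.02 and 0.03 with 10 nM. At 6 h it was 1.44, 1.51 and 1.24 with vehicle, 1.35, 1.09 and 1.36 with 0.1 nM, and for 10 nM it was 1.30, 1.37 and 1.32. The 3 doses did not overlap at 18 h and lay within each other's range or next to it at 6 h. Group means at 18 h were 1.56 ± 0.14 with vehicle, 1.03 ± 0.13 with 0.1 nM and 0.20 ± 0.35 with 10 nM (SD, n = 3 each). The 10 nM library that lay apart was also the highest of its group here.

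**Figure D2:**
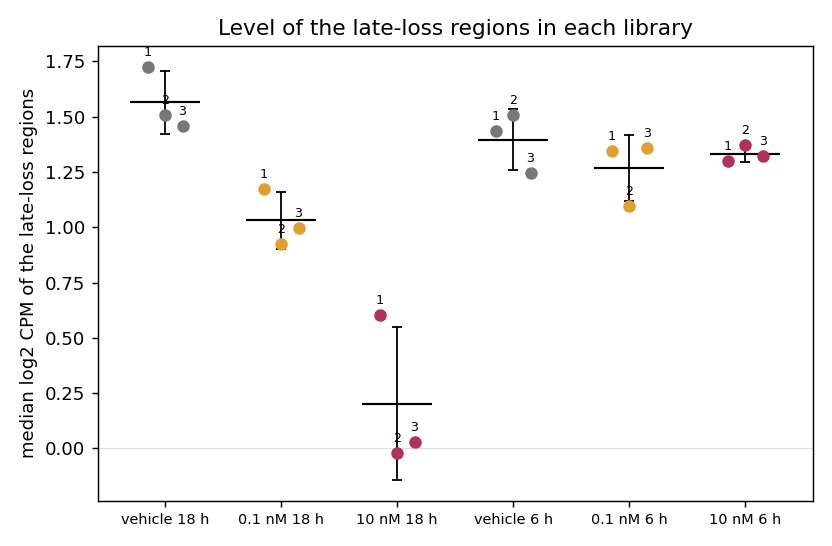
The vertical axis is the median log2 CPM of the 312 late-loss regions in each library, with numbered points for replicates, a bar for the group mean and whiskers for 1 SD (n = 3). At 18 h the 10 nM libraries (-0.02 to 0.60) lie below the 0.1 nM libraries (0.92 to 1.17) and the vehicle libraries (1.46 to 1.73), while at 6 h the groups span 1.09 to 1.51.

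Because 10 nM and vehicle chose the regions, the limits were also applied with 1 replicate number left out of all groups, and 10 nM minus vehicle was then taken from the left-out libraries. Each round chose a list of its own, and of its 760, 535 and 377 regions, with replicate number 1, 2 and 3 left out, 221, 186 and 159 were among the 312. At 18 h the median in the left-out libraries was -0.60, -0.77 and -0.80 in the same order of rounds, against -1.40, -1.38 and -1.40 in the libraries that chose the regions. Over all regions of mean CPM at least 1, the left-out medians at 18 h were -0.10, -0.07 and -0.09. The left-out difference at 18 h averaged -0.72 ± 0.11 (SD, n = 3 rounds that share libraries), below the median of all regions in each round.

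At 6 h the regions chosen in this way stood at -0.08, 0.01 and -0.07 in the choosing libraries, and at -0.42, -0.23 and -0.21 in the left-out libraries, against 0.03, -0.08 and -0.01 over all regions. So the left-out libraries had these regions below vehicle at 6 h as well, by less than at 18 h in the median. Taken region by region, the left-out difference at 18 h minus that at 6 h had medians of -0.22, -0.40 and -0.61. Over all regions these medians were -0.05, -0.15 and -0.22. The share that met both limits again in the left-out libraries was 6.32, 13.3 and 20.7% of the regions chosen, against 4.33, 1.34 and 1.77% of all regions. Most regions therefore did not repeat both limits in a single further pair of libraries per time.

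The rounds differed in how the left-out values went with signal. Among chosen regions of 10 CPM or more (66, 20 and 15), the left-out median was -0.87, -1.51 and -1.74 at 18 h, and -0.57, -0.06 and 0.12 at 6 h. Among those of 1 to 2 CPM (347, 283 and 201) it was -0.34, -0.46 and -0.54 at 18 h and -0.35, -0.24 and -0.28 at 6 h. Both limits were met again by 6.06, 60 and 73.3% of chosen regions at 10 CPM or more, against 6.34, 7.77 and 12.4% at 1 to 2 CPM. The share was thus higher in strong regions with replicate number 2 or 3 left out, and not with number 1 left out, the round read in the 10 nM library that lay apart. A set of 57 regions was chosen in every round. Each was among the 312, which was fixed in advance, because the values over all libraries are the means of those of the rounds. The median level of the 57 was 3.11 CPM, with 10 nM minus vehicle of -1.56 at 18 h and 0.06 at 6 h in all libraries. These differences come from the libraries that chose the regions, so they are a description.

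**Figure D3:**
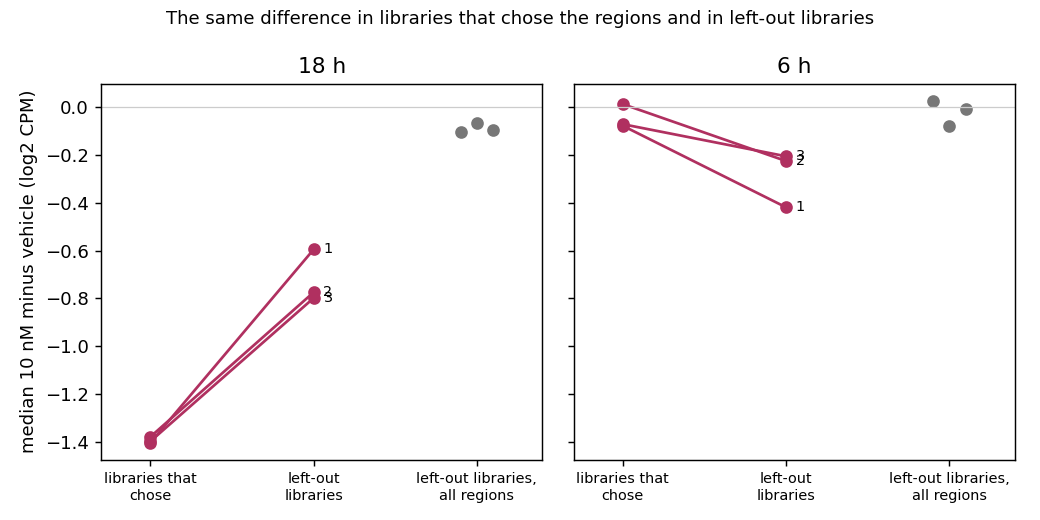
The vertical axis is the median 10 nM minus vehicle in log2 CPM at 18 h (left) and 6 h (right), and each line is a round with the replicate number beside it left out. The difference at 18 h goes to between -0.80 and -0.60 in left-out libraries and that at 6 h to between -0.42 and -0.21, while all regions in the left-out libraries (grey) lie between -0.10 and 0.03.

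The comparison of 0.1 nM over time is made of libraries that entered the choice only through the mean level over all libraries. Same-numbered libraries of 0.1 nM and 10 nM at 18 h deviated together, however, with correlations of 0.641, 0.224 and 0.505. For 0.1 nM and vehicle at 18 h they were 0.508, 0.142 and 0.523. The comparison may therefore not be free of the choice, which was not tested. Late-loss regions were mostly lower at 18 h than at 6 h with 0.1 nM, and none passed the test on its own. Of the 312, 248 (79.5%) had a negative log2 fold change, with a median of -0.32, against 52.6% and a median of -0.03 over all regions of mean CPM at least 1. In edgeR's quasi-likelihood test, 0 late-loss regions were called lower and 0 higher at an adjusted p under 0.05, where 0.00151% of the 132153 regions tested were called lower and 0% higher. At an unadjusted p under 0.05 in edgeR, 68 late-loss regions (21.8%) were lower and 1 was higher, where 3.24% of all regions tested were lower and 6.32% higher (3.87% and 5.67% at mean CPM at least 1). The 68 became 41 without 0.1 nM replicate 2 at 18 h, 42 without replicate 3 at 6 h, and 78 without replicate 2 at 6 h, the library that stood away from its group. At an adjusted p under 0.05, DESeq2's Wald test called 4 of the 312 lower, and an edgeR fit blocked on replicate number 4. A fit with the share of the 5000 strongest regions as a covariate called 6. The share of all regions called in these fits is not given here, so nothing is read from these counts.

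Libraries did not overlap at 70 regions (22.4%) that were lower at 18 h and at 5 (1.60%) that were higher, where 6.31% and 6.71% of all regions tested did not overlap. The shift was present at each level of signal. As a difference of group means of log2 CPM, the median of late-loss regions was -0.27, -0.34, -0.43 and -0.54 in regions of 1 to 2, 2 to 5, 5 to 10 and 10 or more CPM, where all regions had 0.21, 0.03, -0.09 and -0.25. In the 57 regions chosen in every round the same difference had a median of -0.41, and 46 of them were below 0. With 0.1 nM the 5000 strongest regions held 39.9, 37.0 and 34.5% of counts at 18 h, against 39.7, 37.0 and 38.7% at 6 h. With that share as a covariate the late-loss median was -0.26. The median of all regions was not taken in that fit, so nothing is read from this value. Scaled by total counts instead of TMM, the late-loss median of 0.1 nM at 18 h minus 6 h was -0.25 with 230 regions below 0, while that of all regions was 0.06.

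A lower level at 18 h with 0.1 nM was not particular to late-loss regions. The 2516 regions lost at both times had a median of -0.24 in the same comparison, with 74.4% below 0. The 98 regions that were lower with 10 nM at 6 h only had a median of 0.23, and the 114 that were higher with 10 nM at 18 h only a median of 0.41. Both sets were weak, with median levels of 1.51 and 1.41 CPM. As a difference of group means of log2 CPM their medians were 0.21 and 0.40, where all regions of 1 to 2 CPM had 0.21. The median of the 98 was thus that of regions of such signal. These medians are descriptions, and the differences between the sets were not tested.

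**Figure D4:**
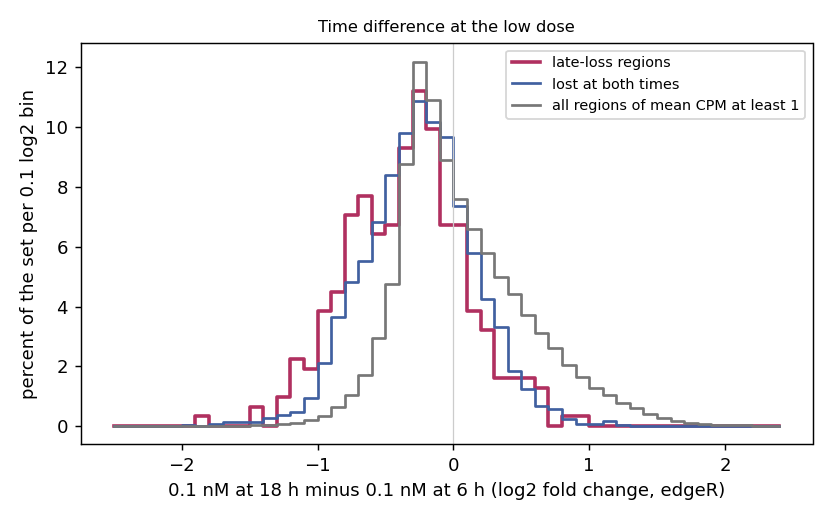
The horizontal axis is the edgeR log2 fold change of 0.1 nM at 18 h over 0.1 nM at 6 h and the vertical axis the percent of each set per bin of 0.1. The late-loss regions (median -0.32) and the regions lost at both times (median -0.24) lie left of all regions of mean CPM at least 1 (median -0.03).

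Several late-loss regions had large differences over time at 0.1 nM without passing the adjusted test. On chromosome 19 from 29504343 to 29505248 the level was 4.14, 5.47 and 4.94 CPM at 18 h, against 12.4, 8.94 and 10.2 CPM at 6 h. The 18 h values were all below the 6 h values, with a log2 fold change of -1.13 (SE 0.20, edgeR adjusted p = 0.105, and 0.000789 to 0.721 over the alternatives). At 18 h this region stood at 4.77, 5.17 and 3.05 CPM with 10 nM, which overlapped the 0.1 nM values, and at 13.2, 12.9 and 13.4 CPM with vehicle. At 6 h its 10 nM values of 11.7, 11.1 and 10.3 CPM were already just below every vehicle library, the lowest of which also rounds to 11.7 CPM.

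On chromosome 3 from 23285761 to 23286161 the level with 0.1 nM was 0.623, 0.416 and 0.76 CPM at 18 h, against 2.01, 1.38 and 2.82 CPM at 6 h (log2 fold change -1.81, SE 0.36, edgeR adjusted p = 0.156). The 18 h values rest on 17, 6 and 8 counts. With 10 nM the same region had 1.96, 0.889 and 0.924 CPM at 18 h, against 7.43, 5.49 and 7.73 CPM at 6 h. Vehicle was lower at 18 h there too, with 3.43, 2.98 and 3.13 CPM, against 4.4, 3.73 and 4.3 CPM at 6 h. All 3 doses were thus lower at 18 h without overlap, and the 6 h values of 10 nM were above those of 0.1 nM and above those of vehicle.

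On chromosome 1 from 88183740 to 88184458 the level with 0.1 nM was 4.58, 2.77 and 3.13 CPM at 18 h, against 8.91, 7.02 and 13.1 CPM at 6 h (log2 fold change -1.45, edgeR adjusted p = 0.156). A region on chromosome 2 from 44111722 to 44112523 had 2.6, 2.77 and 2.56 CPM at 18 h, against 7.52, 3.42 and 7.1 CPM at 6 h (log2 fold change -1.198, edgeR adjusted p = 0.221). In both regions the times did not overlap. The regions on chromosomes 19, 3, 1 and 2 were each called in 3 of 14 alternative fits, namely the replicate block, the covariate and DESeq2's Wald test.

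Late-loss regions outside the 248 of 312 that were lower at 18 h went the other way with 0.1 nM, as in these examples. On chromosome 2 from 202883726 to 202884078 the level was 3.003, 2.29 and 2.18 CPM at 18 h, against 1.80, 2.04 and 1.39 CPM at 6 h, with no overlap (log2 fold change 0.54, SE 0.28, edgeR adjusted p = 0.544). On chromosome 4 from 154731538 to 154731844 it was 9.67, 8.8 and 3.61 CPM at 18 h, against 5.66, 4.68 and 6.11 CPM at 6 h, which overlapped. Both regions had less signal with 10 nM at 18 h, at 0.858, 0.727 and 0.647 CPM on chromosome 2 and 3.06, 1.7 and 1.94 CPM on chromosome 4.

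The low dose was then set beside the vehicle, in a comparison that shares the vehicle libraries with the choice. At 18 h, 34 late-loss regions (10.9%) were less accessible with 0.1 nM than with vehicle and 0 were more accessible in edgeR at an adjusted p under 0.05, where 0.663% of regions tested were called lower and 1.74% higher. A fit blocked on replicate number called 57 lower, with the share of all regions called in that fit not given here. The count was 19 or 18 without 0.1 nM replicate 1 or 2, and 12 or 18 without vehicle replicate 1 or 2, and 26 or 29 without replicate 3 of 0.1 nM or vehicle. The median difference was -0.60 at 18 h, with 279 of 312 regions (89.4%) below 0, and -0.09 at 6 h. Over all regions of mean CPM at least 1 the median at 18 h was -0.04 with 53.7% below 0, and over the regions lost at both times it was -0.75 with 93.2% below 0. At 6 h, 2 regions were called lower and 0 higher, where 0.220% of regions tested were lower and 0.947% higher. The lower count was 1 without 0.1 nM replicate 1 or 3 or vehicle replicate 2 at 6 h.

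The group mean of 0.1 nM at 18 h lay between those of 10 nM and vehicle at 264 of the 312 regions, at or below 10 nM at 15, and at or above vehicle at 33. It was 1.2 or more below vehicle on the log2 scale at 37 regions. The choice put 10 nM at least 1.2 below vehicle at 18 h, so a mean between them is partly set by the choice. This order was not counted over all regions, and no graded response to dose is read from it. Against 0.1 nM at 18 h, 10 nM was lower at 77 regions (24.7%) and higher at 1 in edgeR, where 4.21% of regions tested were lower and 6.68% higher. That comparison shares the 10 nM libraries with the choice, as does 10 nM at 18 h against 6 h, which called 98 regions lower (31.4%, against 1.25% of regions tested). Without 0.1 nM replicate 1 the 77 became 46. The 98 became 58, 63 and 61 without 10 nM replicate 2 or 3 at 18 h or replicate 3 at 6 h. By the contrast that chose the regions, 243 (77.9%) were called lower with 10 nM than with vehicle at 18 h, where 7.21% of regions tested were.

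At 18 h, 10 nM and vehicle libraries did not overlap at 269 regions (86.2%), which follows from the choice. Over all regions tested, 13.5% were lower without overlap. At 6 h, 18 regions were above every vehicle library with 10 nM (25.3% of regions tested) and 9 below (18.5%). With vehicle itself, edgeR called 0 late-loss regions higher and 0 lower at 18 h than at 6 h, and 0% of regions tested in either direction. At an unadjusted p under 0.05 edgeR had 4 higher and 1 lower, where 1.64% and 1.17% of regions tested were, and DESeq2's Wald test called 0 in both directions. The median of vehicle at 18 h minus 6 h was nevertheless 0.16, with 213 of 312 regions above 0, and 20 were higher and 10 lower with no overlap (5.22% and 4.32% of regions tested).

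The regions with the largest differences at 18 h were taken among those of at least 2 CPM whose libraries did not overlap. The largest was on chromosome 10 from 104741882 to 104742553, with 6.09, 3.23 and 4.07 CPM with 10 nM at 18 h, against 22.1, 20.4 and 21.2 CPM with vehicle. At 6 h it had 20.5, 18.5 and 25.7 CPM with 10 nM, against 28.2, 23.5 and 19.97 CPM with vehicle, which overlapped. The mean with 10 nM at 18 h was 4.84-fold lower than with vehicle on the log2 CPM scale. With 0.1 nM it stood at 8.94, 9.28 and 8.17 CPM at 18 h, between the other groups, against 17.0, 12.1 and 21.1 CPM at 6 h.

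Also on chromosome 10, the region from 51767412 to 51768276 had 4.05, 4.28 and 3.14 CPM with 10 nM at 18 h, against 17.2, 17.9 and 13.6 CPM with vehicle. At 6 h it had 18.5, 21.1 and 18.0 CPM with 10 nM, inside the spread of vehicle at 25.1, 18.8 and 13.1 CPM. With 0.1 nM it had 15.1, 12.8 and 10.4 CPM at 18 h, against 21.9, 20.2 and 18.9 CPM at 6 h. The low dose overlapped vehicle at both times here.

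The region on chromosome 16 from 27567506 to 27568343 had 0.778, 0.97 and 1.39 CPM with 10 nM at 18 h, against 5.67, 4.11 and 4.66 CPM with vehicle. With 0.1 nM it had 2.16, 1.59 and 1.52 CPM at 18 h, so the 3 doses did not overlap and the level was lower at each higher dose. At 6 h the levels were 4.4, 4.49 and 5.52 CPM with vehicle, 2.21, 2.64 and 4.06 CPM with 0.1 nM, and 4.97, 4.44 and 5.68 CPM with 10 nM. The low dose was thus the lowest of the 3 at 6 h.

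A region on chromosome X from 11071271 to 11071943 had 1.82, 0.808 and 0.739 CPM with 10 nM at 18 h, against 7.32, 4.42 and 4.54 CPM with vehicle. The low dose, with 1.32, 1.25 and 1.61 CPM at 18 h, lay inside the range of 10 nM. On chromosome 2 from 62169822 to 62170361 the level was 0.966, 0.727 and 0.555 CPM with 10 nM at 18 h, against 4.48, 2.88 and 3.19 CPM with vehicle, and 2.491, 2.91 and 2.28 CPM with 0.1 nM, which overlapped vehicle. At 6 h that region had 3.22, 2.95 and 3.01 CPM with 10 nM, already below every vehicle library at 3.48, 4.2 and 3.33 CPM. Some late-loss regions thus had the level of 10 nM already at the low dose, and others that of vehicle.

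The low dose also stood near vehicle on chromosome 10 from 75436030 to 75437006, where 10 nM at 18 h gave 2.98, 2.51 and 1.02 CPM, against 10.5, 10.7 and 7.49 CPM with vehicle. With 0.1 nM the level there was 15.2, 11.3 and 9.31 CPM at 18 h, overlapping vehicle and above it on average. The 8 regions named by this criterion were 328 to 976 bp wide, and their 10 nM means at 18 h were 4.17-fold to 4.84-fold below vehicle.

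**Figure D5:**
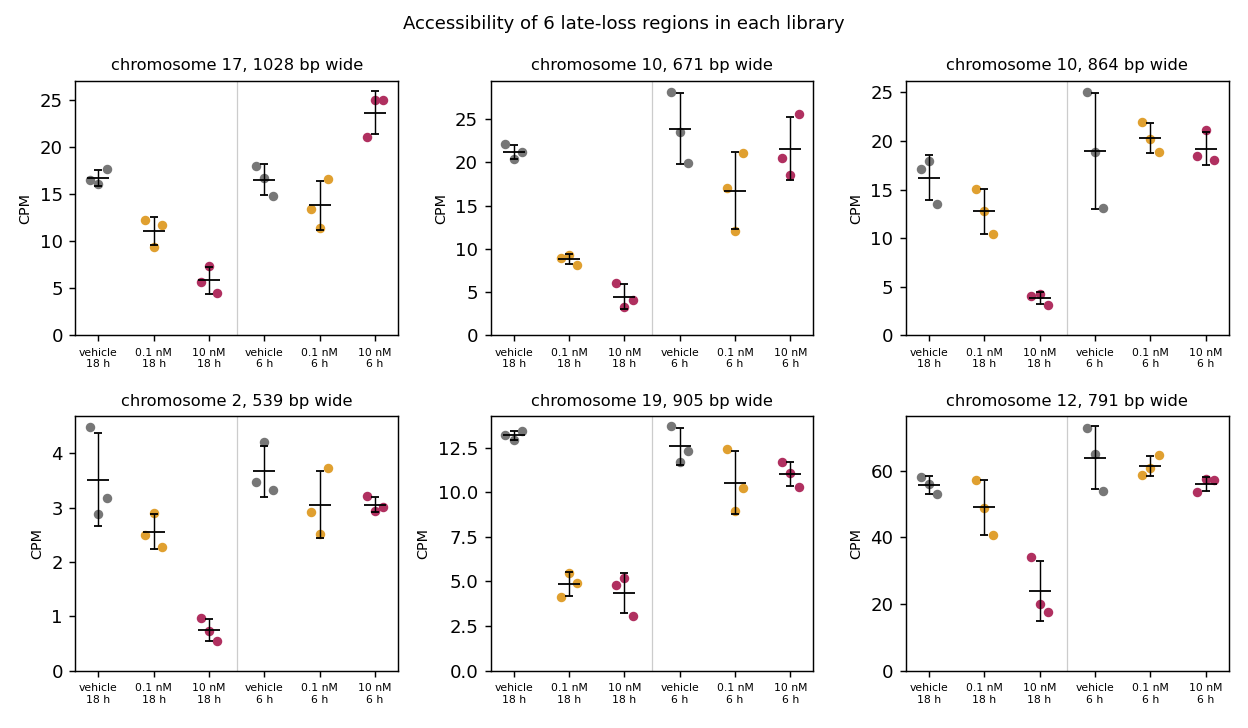
CPM in each library at 6 late-loss regions, with vehicle, 0.1 nM and 10 nM at 18 h on the left and at 6 h on the right of each panel, points for libraries, bars for means and whiskers for 1 SD (n = 3). The 10 nM points at 18 h lie below every vehicle point at 18 h in each panel, and the 0.1 nM points at 18 h range from the level of 10 nM (chromosome 19) to that of vehicle (chromosome 12).

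The 6 late-loss regions with the most signal had 10 nM minus vehicle of -1.2027 to -1.91 at 18 h, on both sides of the median of the set. The highest was on chromosome 12 from 89960277 to 89961068, with 34.2, 19.9 and 17.7 CPM with 10 nM at 18 h, against 58.2, 56.1 and 53.0 CPM with vehicle. Its 10 nM values at 6 h were 53.7, 57.5 and 57.2 CPM, inside the vehicle spread of 72.7, 65.1 and 53.8 CPM save for the lowest. On chromosome 6 from 49635657 to 49636650 the level was 27.1, 15.8 and 12.9 CPM with 10 nM at 18 h, against 53.1, 43.6 and 35.5 CPM with vehicle.

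In both of these regions the 10 nM library that lay apart was the highest of its group at 18 h. Without it, the difference was -1.56 on chromosome 12, against -1.28 with it, and -1.60 on chromosome 6, against -1.29 with it. On chromosome 11 from 91043036 to 91043997 the 10 nM level at 18 h was 11.6, 4.69 and 5.27 CPM, against 29.9, 21.5 and 24.4 CPM with vehicle, and 0.1 nM stood at 13.8, 11.02 and 10.8 CPM. The low dose overlapped 10 nM in that region.

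The change of the 10 nM response between the times is made of the values that chose the regions, so it is a description here. In the edgeR interaction over the whole table, 1 late-loss region was called lower, as were 0.00151% of the regions tested, and nothing is read from that count. The region lay on chromosome 17 from 53665309 to 53666337, with 5.69, 7.35 and 4.44 CPM with 10 nM at 18 h, against 16.5, 16.0 and 17.6 CPM with vehicle. At 6 h it had 21.0, 24.9 and 24.96 CPM with 10 nM, against 18.0, 16.7 and 14.8 CPM with vehicle, so 10 nM was above every vehicle library at 6 h and below every one at 18 h. The fitted change was -2.04 on the log2 scale (SE 0.28), and -2.22 to -1.89 when each of 12 libraries was left out, with the call kept in 2 of the 12 fits. With 0.1 nM the region had 12.2, 9.35 and 11.7 CPM at 18 h, against 13.4, 11.4 and 16.6 CPM at 6 h (log2 fold change -0.32, SE 0.20, edgeR adjusted p = 0.601).

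At 16 of the 312 regions, 10 nM was above every vehicle library at 6 h and below every one at 18 h. The 18 h side follows from the choice. At 6 h, 10 nM was above every vehicle library at 5.77% of late-loss regions, against 25.3% of regions tested. How many of all regions had both was not counted, so nothing is read from the 16. One of the 16 was the region on chromosome 1 from 88183740 to 88184458, with 2.74, 1.7 and 1.66 CPM with 10 nM at 18 h, against 5.12, 5.34 and 9.26 CPM with vehicle. At 6 h it had 9.98, 10.5 and 9.44 CPM with 10 nM, against 7.06, 5.4 and 7.71 CPM with vehicle. Another was that on chromosome 2 from 202883726 to 202884078, where 10 nM gave 2.6, 3.72 and 3.67 CPM at 6 h, against 1.74, 1.74 and 1.46 CPM with vehicle, and had the highest 6 h difference of all late-loss regions at 0.96.

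Late-loss regions were spread over the genome. Of the 106059 regions of mean CPM at least 1, 312 were late-loss regions. They were most numerous on chromosomes 2 (35), 1 (32) and 12 (26), where they made up 0.524, 0.346 and 0.444% of such regions. The highest shares were 0.794% on chromosome 13, 0.606% on chromosome 18 and 0.599% on chromosome X. The lowest were 0.0856% on chromosome 20, 0.0999% on chromosome 22 and 0.114% on chromosome 19, besides 0 of 174 on chromosome Y. The median distance to the nearest other late-loss region was 2751.1 kb, 16 regions had one within 100 kb and 0 within 20 kb. No window of 1 Mb held more than 2 of them. One such window, on chromosome 1 from 87851122 to 88184458, ended with the region described above.

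The nearest region of mean CPM at least 1 lay a median of 9.625 kb from a late-loss region, against 6.126 kb between all such regions. The 309 nearest neighbours that were not late-loss regions themselves had a median 10 nM minus vehicle of -0.30 at 18 h and -0.07 at 6 h, and 194 of them (62.8%) were below 0 at 18 h. Over all regions of mean CPM at least 1 the medians were -0.12 at 18 h and -0.05 at 6 h, with 57.2% below 0 at 18 h. Within 5 kb, the 103 neighbours had medians of -0.29 at 18 h and -0.03 at 6 h. These neighbours share the libraries that chose the late-loss regions.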

How the data were processed

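Omni-ATAC libraries of T47D cells were read from 1 table of raw counts per region, which the authors deposited unnormalized. Reads were handled with BWA and MACS2 on hg19, per the submitters' processing notes. For versions, read filters, any Tn5 shift and the merging of regions, nothing was stated in the sources used here. Columns were matched to samples by name.

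The late-loss regions, the sets beside them and the rule for named regions were chosen with earlier results of these data known. TMM factors (edgeR 4.0.16, R 4.3.3) came from the whole table, levels are CPM on TMM-scaled library sizes, and log2 CPM used a prior count of 2. Counts were tested with edgeR's quasi-likelihood test in 1 fit of all 18 libraries, a mean per group, 12 residual degrees of freedom. filterByExpr (minimum count 10, total 15) kept 132153 regions and left out 451, and every late-loss region was kept. Adjusted p is Benjamini-Hochberg over all regions tested, with calls under 0.05. The SE is the log2 fold change divided by the square root of F. The steps were also run on simulated counts with known changes. Those counts were drawn independently, without deviations shared by same-numbered replicates or a library that lay apart, so they do not test for these. In the measured libraries no pair of replicates matched within sampling noise (chi-square per degree of freedom 3.34 to 28.2).

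Named regions were the 8 with the largest difference at 18 h (mean CPM at least 2, no overlap), the 6 with the highest mean CPM, the 8 with the smallest p in each direction for 0.1 nM over time, the 3 on each side of each limit, members of the 2 densest windows of 1 Mb, and any called in the interaction; most are given as ranges or counts.

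Same-numbered replicates deviated together, with correlations over 0.1 in every pair, for 0.1 nM against vehicle at 18 h (0.508, 0.142 and 0.523), 10 nM against 0.1 nM at 18 h (0.641, 0.224 and 0.505) and vehicle over time (0.36, 0.166 and 0.511), a pairing seen in the data and not stated in the labels. Alternatives were other scalings, prior counts and filters, DESeq2 1.42.0, the replicate block, a covariate, fits of the compared groups alone and leaving out libraries. Gene names, sequences and motifs were not analysed here.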

Additional observations from a re-analysis of the deposited data

Results flagged for a closer look

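At 4 named late-loss regions every 10 nM library was above every vehicle library at 6 h and below every one at 18 h. This pattern was not counted over all regions. The change of the 10 nM response, 18 h minus 6 h on the log2 scale, was -2.04 (SE 0.28) in the edgeR fit on chromosome 17 from 53665309 to 53666337, the only one of the 4 called in that fit, with the call kept in 2 of 12 fits that left out a library. In mean log2 CPM it was -2.21 on chromosome 1 (88183740 to 88184458). The region of chromosome 2 between 202883726 and 202884078 had -2.34, and that of chromosome 3 between 23285761 and 23286161 had -2.07. The rule that chose the regions used the values of this contrast, so these are descriptions and the difference between the times was not tested independently of it.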

How the results depend on the processing

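The number of late-loss regions was 175 at a mean CPM of at least 2, 108 with 10 nM above vehicle at 6 h, and 265 to 738 leaving out 1 library at a time. An alternative chosen after seeing the data, without 10 nM replicate 1 at 18 h and vehicle replicate 1 at 6 h, gave 928. With the replicate block, counts of late-loss regions called lower were 4 for 0.1 nM over time, 57 and 7 for the low dose beside vehicle at 18 h and 6 h, and 35 for the interaction, and the block moved no other count by over 1.5 times. With the share of the 5000 strongest regions as a covariate they were 6 for 0.1 nM over time, 5 for the low dose beside vehicle at 6 h, 174 for 10 nM over time and 79 for the interaction. DESeq2's Wald test gave 4 for 0.1 nM over time, 4 for the low dose beside vehicle at 6 h and 29 for the interaction. Fits of the compared groups alone gave 1 for the low dose beside vehicle at 6 h, 19 for 10 nM against 0.1 nM at 18 h, 52 for 10 nM over time and 0 for the interaction. The interaction count was 0 with DESeq2 size factors and 18 without that pair of libraries, and like the other 10 nM and vehicle counts it comes from values that chose the regions. Leaving out 1 library gave 0 for 0.1 nM over time (41 to 78 at an unadjusted p under 0.05 in edgeR), 12 to 29 and 1 to 2 for the low dose beside vehicle at 18 h and 6 h, 177 to 262 for 10 nM against vehicle at 18 h, 46 to 95 for 10 nM against 0.1 nM, 58 to 133 for 10 nM over time and 0 to 23 for the interaction. For these alternative fits the share of all regions called is not given, so the counts show only how they move. The left-out medians of 10 nM minus vehicle ranged from -0.80 to -0.60 at 18 h and from -0.42 to -0.21 at 6 h. The causes were not tested. Scaling by total counts raised the median of all regions by 0.14 for 10 nM minus vehicle at 18 h and chose 246 regions, of which 187 were among the 312. At the regions named for the largest 18 h difference, the highest CPM or the interaction, 10 nM minus vehicle at 18 h kept its direction throughout. So did 0.1 nM over time at the regions named for it, none of which was called in the main fit. The median late-loss region had 11 and 10 counts in 10 nM replicates 2 and 3 at 18 h, and the part of depth in the results was not tested.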
